A study of Drosophila melanogaster with 6 samples.

Results

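The 2 heat shock libraries of a Drosophila melanogaster small RNA series were set against its 2 control libraries, one of each per genotype, so 4 of the 6 libraries were compared. All 4 came from adult males aged 10 days, from bodies without testes. One genotype was w1118; +/Dnmt2 mutant;+/+, called heterozygous in the labels, and the other was w1118; Dnmt2 mutant/Dnmt2 mutant;+/+. By these labels both genotypes carry the mutation, in 1 or in both copies, and flies without it were not analysed here. The series title calls the heterozygous flies wild type instead, and the sample labels were followed. Heat shock was 1 h at 37 °C in a water bath and RNA was taken after a further 5 h at room temperature, while control flies are labelled as untreated, so the heat and the hours after it cannot be told apart. Each group held 1 library made from 200 µg of total RNA and from gel-cut RNAs of 25 to 70 nt. The 2 remaining libraries, from flies aged 12 days after 2 days of recovery, entered only the estimate of spread and a few values given beside a result.

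Mature tRNAs carry an anticodon of 3 bases, numbered 34 to 36, at the tip of a loop. Under stress, nucleases cut this loop and leave a 5′ fragment, from the first base to the cut, and a 3′ fragment, from the cut to the last base. In mammals the nuclease angiogenin makes such cuts. Dnmt2 methylates a cytosine in the anticodon loop of Asp-GTC, Gly-GCC and Val-AAC tRNAs, and in flies this mark is known to protect these tRNAs from cleavage. The comparison asks which tRNA fragments and which cuts differ after heat shock in flies with and without the enzyme.

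The files list reads of 30 to 51 nt that match nuclear tRNA genes. They held 15336 and 46059 reads in heterozygous control and heat shock, and 67477 and 37463 in mutant control and heat shock. Between 98.9% and 99.4% of the reads in these 4 libraries were placed on a tRNA. The 5 most abundant isoacceptors, that is tRNAs sharing an amino acid and an anticodon, took 88.5% to 90.4% of reads. All levels are relative to the listed tRNA reads, so an overall rise or fall of tRNA fragments cannot be seen. In whole bodies, fewer cells of a type and less RNA per cell cannot be told apart. The Dnmt2 transcript and heat shock genes were not analysed here. The reads of the mutant libraries hold C at some A bases, counted from 1 at the 5′ end of the read. In 51-nt reads A7C stood at 15.4% in mutant control and 14.3% in heat shock, and A24C at 14.8% and 12.0%. In heterozygous libraries A7C was at 0.222% and 0.187%. The part of this difference in the results below was not tested.

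The fragments that carry the results are shown with the anticodon bases they hold in capitals. The first set shows Cys-GCA fragments that stop before, within and after the first anticodon base, from genes on chromosome arm 3L. Copies A and B come from different genes and differ at 2 bases.
Cys-GCA copy A, 32 nt, to position 33: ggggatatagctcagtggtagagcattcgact
Cys-GCA copy A, 33 nt, to position 34: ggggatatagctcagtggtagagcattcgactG
Cys-GCA copy A, 34 nt, to position 35: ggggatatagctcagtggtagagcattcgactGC
Cys-GCA copy B, 33 nt, to position 34: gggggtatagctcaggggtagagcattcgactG
The tRNA around that cut, joined from overlapping reads of the 4 copy A genes, shows the bases on the other side of it.
Cys-GCA copy A, 70 nt joined: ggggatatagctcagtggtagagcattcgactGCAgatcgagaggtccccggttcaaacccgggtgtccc
Asp-GTC fragments are shown from both sides of the loop, since their shares of the reads differed. Asp-GTC genes lie on arms 2L, 3L and 3R.
Asp-GTC, 33 nt, to position 33: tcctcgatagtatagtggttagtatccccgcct
Asp-GTC, 35 nt, to position 35: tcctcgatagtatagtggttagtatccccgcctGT
Asp-GTC, 37 nt, from position 36: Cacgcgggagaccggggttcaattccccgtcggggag
Asp-GTC, 34 nt, from position 39: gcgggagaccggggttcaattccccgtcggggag
The joined Asp-GTC tRNA is the same at 13 genes.
Asp-GTC, 72 nt joined: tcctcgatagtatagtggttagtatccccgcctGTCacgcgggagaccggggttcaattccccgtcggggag
Pro-CGG and Pro-TGG fragments to position 35 are shown because both cut sites at 35 were called lower, with the shorter Pro-CGG end for comparison. Their genes lie on 3L and X for Pro-CGG and on 3R for Pro-TGG.
Pro-CGG, 34 nt, to position 35: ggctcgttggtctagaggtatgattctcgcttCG
Pro-CGG, 32 nt, to position 33: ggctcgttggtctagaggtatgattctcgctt
Pro-TGG, 34 nt, to position 35: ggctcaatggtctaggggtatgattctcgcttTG
Pro-CGG, 72 nt joined: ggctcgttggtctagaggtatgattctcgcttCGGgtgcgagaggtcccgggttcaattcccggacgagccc

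Of 29 tested isoacceptors, 7 passed the test of heat shock against control, which is 24.1%, with 3 higher (10.3%) and 4 lower (13.8%). With TMM scaling, Cys-GCA, Asp-GTC and Glu-TTC fragments rose, and fragments of Pro-CGG, Pro-TGG, Met-CAT and Asn-GTT fell. The shares of these 7 among the listed tRNA reads moved the same way, but with total counts as the scaling 0 of the 29 passed. These 7 had the same direction in both genotypes, although for Asn-GTT the heterozygous interval reached 0. The test was edgeR's quasi-likelihood test of heat shock against control with genotype as an additive term, and an adjusted p below 0.05 counts as passed. Each group was 1 library, so the spread comes from how far the genotypes disagree, with the recovery pair included, and is pooled over features. The labels do not say whether the flies came from separate cultures, and a p-value here reflects only library-to-library spread. With 2 pairs an exact permutation test could not go below 0.5, so none was run.

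Cys-GCA, the tRNA that carries cysteine, had 115 reads in heterozygous control and 1239 in heat shock, while mutants had 413 and 1802. As a share of all tRNA reads this was 0.750% and 2.69%, then 0.612% and 4.81%. Both heat shock libraries lay above both controls. The log2 fold change was 2.74 ± 0.33 (SE, edgeR adjusted p = 6.89e-10). Each SE of a log2 fold change, here and below, is its size divided by the square root of the test's F statistic. It is therefore no measure of spread apart from the test. The log2 ratio of heat shock to control was 2.31 in heterozygotes (95% exact interval 2.05 to 2.61) and 3.14 in mutants (2.99 to 3.30). These intervals cover counting error only. Below, 4 values in a row are always heterozygous control, heterozygous heat shock, mutant control and mutant heat shock.

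Asp-GTC, which carries aspartate and is a Dnmt2 substrate, had 486 reads in heterozygous control and 2605 in heat shock, while mutants had 633 and 1122. Its share went from 3.17% to 5.66% and from 0.938% to 2.995%. Heat shock was above control within each genotype, but the mutant heat shock share lay below the heterozygous control share. The log2 fold change was 1.55 ± 0.34 (edgeR adjusted p = 0.000352). The call ended without the heterozygous control library (log2 fold change lowest at 0.57 among fits without 1 library), without the mutant control and without the heterozygous heat shock library.

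Glu-TTC, a glutamate tRNA, rose by 0.91 ± 0.31 on the log2 scale (edgeR adjusted p = 0.0288). Its reads were 308 and 1092 in heterozygous control and heat shock, while mutants had 848 and 890. As shares these were 2.01%, 2.37%, 1.26% and 2.38%, so the groups did not overlap. This call held in none of the 6 fits without 1 library (0.29 to 0.91), and in 3 of 9 other settings with all libraries. The other glutamate tRNA, Glu-CTC, stood at 1.02 ± 0.49 and did not pass (edgeR adjusted p = 0.146). It held 17.8% and 24.95% of reads in heterozygotes, against 7.17% and 13.5% in mutants. Of the 2 tested members of the glutamate family, 1 was called higher and 0 lower, where 10.3% and 13.8% of all 29 features were called.

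Pro-CGG, a proline tRNA, had 131 reads in heterozygous control and 122 in heat shock, while mutants had 372 and 93. In shares this was 0.854% and 0.265%, then 0.551% and 0.248%, with both heat shock libraries below both controls. It fell by 1.09 on the log2 scale (SE 0.32, edgeR adjusted p = 0.0105). Pro-TGG, another proline tRNA, had 81, 110, 258 and 60 reads, or 0.528%, 0.239%, 0.382% and 0.160%. It fell by 0.89 (SE 0.34, edgeR adjusted p = 0.0473). Pro-AGG, the third tested proline tRNA, stood at -0.66 and did not pass (edgeR adjusted p = 0.265), with log2 ratios of -0.30 in heterozygotes and -0.93 in mutants. Of the 3 tested proline features 0 were called higher and 2 lower, beside 10.3% and 13.8% over all features, and their median log2 fold change was -0.89 against 0.02 over all 29 features.

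Met-CAT, whose genes carry methionine for the start of proteins or for positions within them, fell by 0.80 (SE 0.30, edgeR adjusted p = 0.0473). It had 171, 263, 896 and 206 reads, or 1.12%, 0.571%, 1.33% and 0.550%, so both heat shock libraries lay below both controls. Between 94.3% and 99.0% of these reads were listed only at initiator genes. Asn-GTT, the asparagine tRNA, fell by 1.26 (SE 0.43, edgeR adjusted p = 0.0288) on few reads, at 32, 43, 169 and 24. In 6 fits that each left out 1 library, Pro-TGG and Met-CAT passed in 0, Asn-GTT in 1, without heterozygous heat shock, and Pro-CGG in 1, without mutant heat shock. Without the heterozygous control or the mutant control no isoacceptor passed, while 10 and 4 had an unadjusted edgeR p under 0.05. Cys-GCA stood at 1.88 to 2.91 in the fits without 1 library and passed in 4 of 6.

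**Figure D1:**
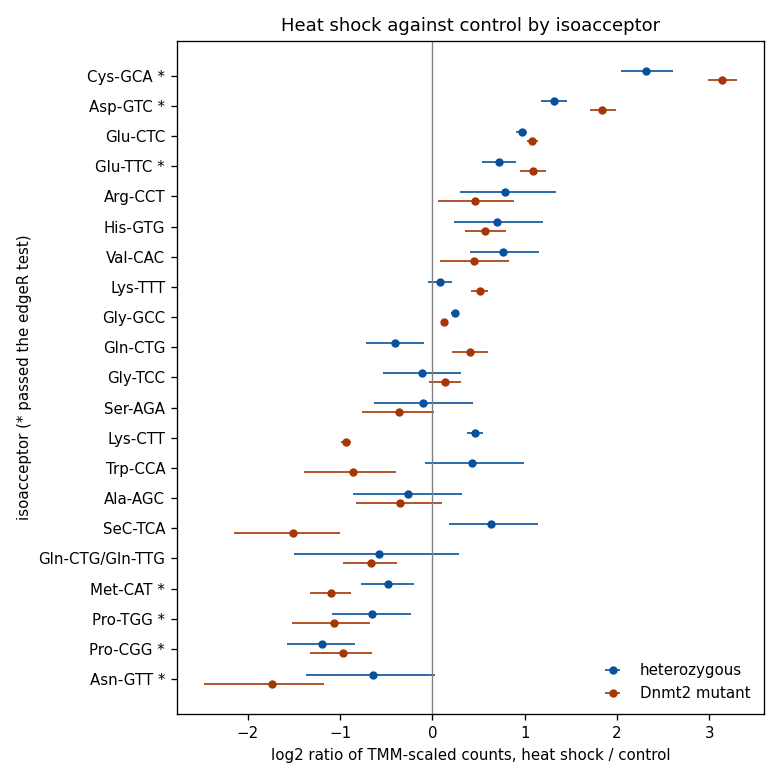
Log2 ratio of TMM-scaled counts, heat shock over control, for the 21 isoacceptors that passed the test or had at least 300 reads over the 4 libraries. Points are 1 pair of libraries each, blue for heterozygotes and brown for mutants, and bars are exact 95% intervals for counting error. Cys-GCA lies farthest to the right at 2.31 and 3.14, and SeC-TCA, Lys-CTT and Gln-CTG have points on opposite sides of 0.

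The other 14 named isoacceptors had at least 300 reads and did not pass, with edgeR adjusted p between 0.146 and 0.946. Gly-GCC, the glycine tRNA that held the largest share of these 4 libraries, went from 53.8% to 45.6% for heterozygotes, with mutants going from 58.3% to 56.5%. Its log2 fold change was 0.19 with TMM scaling and turned to -0.15 with total counts, so no direction can be given for its sum. His-GTG, Val-CAC and Arg-CCT, which carry histidine, valine and arginine, were each above 0 in both pairs. His-GTG had log2 ratios of 0.70 and 0.57, Val-CAC of 0.77 and 0.45 and Arg-CCT of 0.78 and 0.47, in heterozygotes and mutants. Lys-TTT, a lysine tRNA, stood at 0.08 and 0.51. Reads shared by Gln-CTG and Gln-TTG stood at -0.57 and -0.66. For Ala-AGC the values were -0.27 and -0.35. Ser-AGA gave -0.10 and -0.36. Gly-TCC was at -0.11 and 0.14 and Trp-CCA at 0.43 and -0.86. Over the 29 tested features, 10 ratios were higher in both genotypes, 10 lower in both and 9 opposite. In 8 (27.6%) both intervals lay above 0 and in 3 (10.3%) both lay below 0. The 8 include Gly-GCC, although its share of reads fell in both genotypes. These ratios and counts are with TMM scaling, and with total counts more features had both intervals below 0 than above it.

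The scaling sets where 0 lies. The median log2 fold change of all tested isoacceptors was 0.02 with TMM, 0.18 with RLE size factors and -0.29 with total counts, a shift of 0.16 and -0.31. Measured from the median of the same fit, over 9 settings with all libraries, Cys-GCA stood at 2.67 to 2.88, Asp-GTC at 1.47 to 1.67 and Glu-TTC at 0.83 to 1.04. Pro-CGG stood at -1.18 to -0.97, Pro-TGG at -0.98 to -0.76, Met-CAT at -0.90 to -0.67 and Asn-GTT at -1.35 to -1.13. None of these 7 changed sign in those settings.

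Over all 29 features 10.3% were called higher and 13.8% lower, and the lists here are too small to be read against these shares. Of the 3 Dnmt2 substrates, 2 were tested and 1, Asp-GTC, was called higher. Their median log2 fold change was 0.87 against 0.02 over all features. Val-AAC had 3 and 9 reads in heterozygous control and heat shock, while mutants had 1 and 2, too few to test. Among tRNAs with queuosine, a modified base at position 34, all 4 were tested, Asp-GTC was called higher and Asn-GTT lower, and His-GTG and Tyr-GTA did not pass. Among 8 tRNAs whose genes have A at position 34, 6 were tested and 0 passed, with a median of -0.28. The 2 tested lysine features, 1 alanine, 1 valine, 3 glutamine and 2 glycine features gave 0 calls. The single methionine feature was the called Met-CAT. Of 11 tRNAs with a long variable arm, 3 were tested and 0 passed. Before adjustment, edgeR gave 8 features an unadjusted p under 0.05 over the whole table.

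Reads were then counted by where the tRNA was cut, with fragments that end or start at the same position summed. Of 71 cut sites tested, 6 passed, which is 8.45%, with 3 higher (4.23%) and 3 lower (4.23%). The rises were the 3′ fragments of Gly-GCC that start at 35, the 5′ fragments of Cys-GCA that end at 34 and the 5′ fragments of Glu-CTC that end at 41. The lower sites were the 5′ fragments of Pro-CGG and of Pro-TGG that end at 35 and those of Met-CAT that end at 32. All 6 had the same direction in both genotypes, with intervals that left out 0 in each pair. Pro-CGG at 35 met the count minimum only in the control libraries, so it had to differ to be tested, and the other 5 met it in libraries of both conditions. Of these, Glu-CTC at 41 only just met it in heterozygous control, with 10 reads where the minimum was 10. In mutant control, with 7 reads, that site did not meet it. TMM factors were estimated anew for cut sites and for single fragments, so their log2 values and those of isoacceptors have unlike 0 points. The median log2 fold change of the 71 sites was -0.12 with TMM and 0.19 with total counts. With total counts 3 sites passed higher and 1 lower. Among all 71 sites, with TMM, both intervals lay above 0 at 14 (19.7%) and below 0 at 15 (21.1%). The pair ratios of heterozygotes and mutants had a Pearson r of 0.66 over the 71 sites, which share libraries and depth, so it is a description only.

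**Figure D2:**
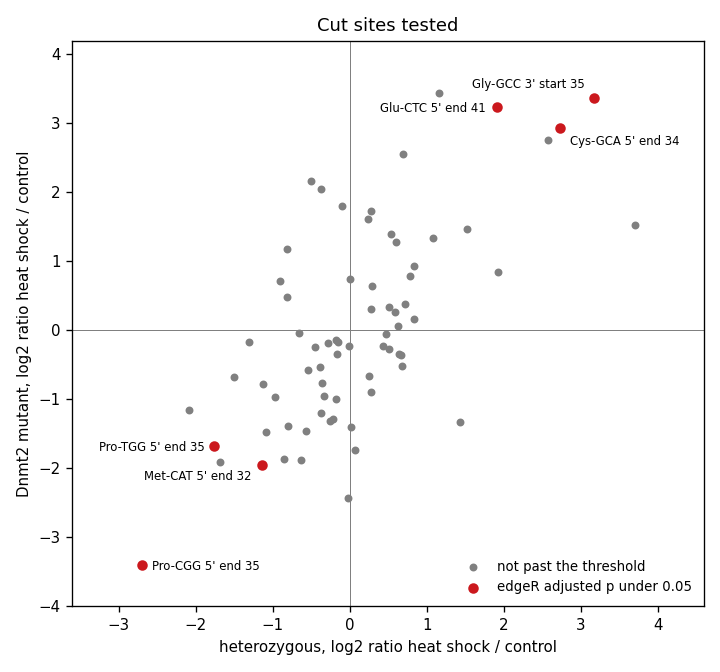
Log2 ratio of heat shock to control for the 71 tested cut sites, with heterozygotes on the x axis and mutants on the y axis. Red points passed the edgeR test. Gly-GCC 3′ start 35, Cys-GCA 5′ end 34 and Glu-CTC 5′ end 41 lie at the upper right, and Pro-CGG 5′ end 35 at the lower left at -2.69 and -3.40.

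At Cys-GCA the cut that passed lies inside the anticodon. Fragments ending at 34, between G and C of the anticodon, had 47 and 945 reads in heterozygous control and heat shock, while mutants had 251 and 1620. The site rose by 2.85 ± 0.58 (log2, edgeR adjusted p = 5.92e-05), with pair ratios of 2.74 and 2.93. It passed in 2 of 6 fits without 1 library, and failed without any 1 of the 4 compared libraries (2.70 to 3.08). The neighbouring end at 33 had 29, 121, 87 and 70 reads, and its share of Cys-GCA 5′ fragments went from 25.7% to 9.87% and from 21.8% to 3.90%. The end at 35 had 7, 87, 36 and 56 reads. Fragments ending at 34 were 41.6% and 77.1% of Cys-GCA 5′ fragments in heterozygotes, against 62.8% and 90.2% in mutants, a difference of 35.5 points (95% interval 26.0 to 44.4) and 27.4 points (22.6 to 32.4). In recovery the shares were 26.3% and 51.8%. The share ending at 34 is also given by set of genes. In the 4 genes of copy A the share was 32.2% and 77.7% in heterozygotes, against 42.7% and 89.5% in mutants. In the other Cys-GCA genes it was 73.1% (53.9 to 86.3) and 73.3% (66.0 to 79.5) for heterozygotes, the first on 26 reads, and 85.6% (79.8 to 89.9) and 93.2% (89.8 to 95.5) for mutants. The difference between these sets of genes was not tested.

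In both heat shock libraries most of these reads came from 1 sequence. The 33-nt fragment of copy A, listed at 4 genes, had 28 and 827 reads in heterozygotes, against 91 and 1334 in mutants, and rose by 3.77 ± 0.50 (edgeR adjusted p = 0.00378). It passed in 2 of 6 fits without 1 library (3.40 to 4.11), failing without heterozygous heat shock or any 1 mutant library. That of copy B, listed at 1 gene, had 18 and 117 reads in heterozygotes, against 159 and 284 in mutants. Copy B stood at 1.16 and did not pass (edgeR adjusted p = 0.186), with log2 ratios of 1.09 and 1.15. The difference between the copies was not tested. Copy A outnumbered copy B in heterozygous control and in both heat shock libraries, and copy B outnumbered copy A in mutant control. The joined copy A tRNA reaches 70 of 72 annotated bases, so 3′ fragments of Cys-GCA could not be counted.

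Gly-GCC was cut between the same bases, G and C at 34 and 35, in the 3′ fragments that rose. Fragments starting at 35 had 77 reads in heterozygous control, 2090 in heat shock, 125 in mutant control and 1105 in mutant heat shock. They rose by 3.29 ± 0.59 (edgeR adjusted p = 4.44e-06). Like the Cys-GCA site, this one failed without any 1 of the 4 compared libraries (2.95 to 3.79). Fragments starting at 36 had 259, 766, 956 and 688 reads, with pair ratios of -0.0035 and -0.22, and those starting at 34 had 33, 119, 263 and 118. Neither neighbouring start passed, and the difference between starts was not tested. Of all Gly-GCC 3′ fragments, those from 35 were 20.2% (16.5 to 24.5) and 69.3% (67.6 to 70.9) in heterozygotes, against 8.95% and 56.7% in mutants, and those from 36 went from 68.0% to 25.4% and 68.4% to 35.3%. Of 81 single fragments tested, 5 passed (6.17%), 4 higher (4.94%) and 1 lower (1.23%). Both pair intervals lay above 0 for 17 fragments (21.0%) and below 0 for 14 (17.3%). Of the 5 that passed, 2 met the count minimum in libraries of both conditions, copy A of Cys-GCA and the most abundant Gly-GCC fragment of 38 nt from 35. The latter had 66, 1860, 110 and 982 reads and rose by 3.36 ± 0.53 (edgeR adjusted p = 0.00441), and passed in 3 of 6 fits without 1 library (2.99 to 3.77), failing when mutant control or one of the heat shock libraries was left out. The 2 other Gly-GCC fragments of 38 nt, which differ from it at 1 position, had 5, 126, 10 and 75 reads and 6, 101, 5 and 46. They met the minimum only in the heat shock libraries, so they had to differ to be tested, and their calls ended with no count minimum (edgeR adjusted p = 0.1497 and 0.347). They are not counted here as further support.

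The 5′ fragments that the same cut would leave, Gly-GCC ending at 34, did not pass. They had 2284 and 5181 reads in heterozygotes, against 7507 and 4374 in mutants, with an edgeR adjusted p of 0.602. For every 100 of them there were 3.37 and 40.3 of the 3′ fragments from 35 in heterozygous control and heat shock, while mutants had 1.67 and 25.3. In recovery these numbers were 5.08 and 4.71. The most used 5′ end of Gly-GCC, 33, held 52.5% and 53.4% of its 5′ fragments in heterozygotes, against 59.5% and 57.8% in mutants. The ends at 36 and 37 took smaller shares after heat shock in both genotypes, 4.21% to 3.12% and 2.43% to 1.53% at 36, and 2.77% to 1.83% and 2.33% to 1.98% at 37. The end at 32 took larger ones, 4.96% to 5.81% and 5.73% to 8.46%. The end at 35 went from 4.96% to 5.54% and from 8.61% to 5.87%.

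At Pro-CGG fewer reads ended within the anticodon after heat shock. Fragments ending at 35, between both G bases, had 71 and 30 reads in heterozygous control and heat shock, while mutants had 184 and 13. The log2 fold change of the site was -3.16 (SE 0.57, edgeR adjusted p = 4.44e-06). Since the site was tested only because the controls met the count minimum, this p is no support by itself, and with no minimum the value was -2.88 and did not pass (edgeR adjusted p = 0.125). It also failed without either recovery library, in 2 of the 4 fits without 1 library that could test it (-3.50 to -2.83). The end at 33 had 38, 50, 112 and 54 reads and the end at 34 had 13, 30, 46 and 19. The share of Pro-CGG 5′ fragments that ended at 35 went from 55.9% (47.2 to 64.2) to 25.2% (18.3 to 33.7) for heterozygotes, with mutants going from 51.4% to 14.3%. The share ending at 33 went from 29.9% to 42.02% and from 31.3% to 59.3%. In recovery, end 35 held 39.7% and 37.9%. The 34-nt fragment, tested on the same terms, stood at -3.12 (SE 0.48, edgeR adjusted p = 0.00441), passed in 1 of 4 such fits and did not pass with no minimum (edgeR adjusted p = 0.378).

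Pro-TGG fragments ending at 35 had 48, 40, 149 and 38 reads and fell by 1.77 (SE 0.54, edgeR adjusted p = 0.0172). Here the share of the cut did not move the same way in both genotypes, at 65.8% and 42.6% in heterozygotes, against 62.3% and 67.9% in mutants. The Met-CAT site, ending at 32 before the anticodon, had 124, 165, 716 and 154 reads, all at initiator genes, and fell by 1.62 (SE 0.54, edgeR adjusted p = 0.0410). The Pro-TGG and Met-CAT sites passed in 0 of the 6 fits that left out 1 library, and they passed in 4 and 3 of 9 other settings. Pro-AGG ending at 33 had 24, 38, 106 and 23 reads and stood at -1.47 (edgeR adjusted p = 0.0797). Ala-AGC ending at 33 had 34, 46, 110 and 32 reads and stood at -1.35 (edgeR adjusted p = 0.0797). Within Ala-AGC the share of that end went from 85.0% to 64.8% and from 75.9% to 58.2%, while the end at 32 went from 10.0% to 33.8% and from 22.1% to 40%.

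One Glu-CTC end on the 3′ side of the anticodon rose. Glu-CTC fragments ending at 41 had 10 and 120 reads in heterozygous control and heat shock, while mutants had 7 and 71, and rose by 2.69 ± 0.60 (edgeR adjusted p = 0.000270). They were 0.394% and 1.10% of Glu-CTC 5′ fragments in heterozygotes, against 0.154% and 1.46% in mutants. The end at 39 had 2, 50, 5 and 39 reads and did not pass, and the end at 40 had 5, 37, 1 and 27. Ends 39 to 41 together, a range chosen after their values were seen, were 0.670% and 1.90% of Glu-CTC 5′ fragments in heterozygotes, against 0.286% and 2.81% in mutants. For Glu-TTC the same range held 6.37% and 9.08%, and 2.71% and 9.75%. In recovery Glu-CTC ends 39 to 41 were at 2.26% in heterozygotes and 8.35% in mutants, above control in each genotype. Without either control library or either recovery library the Glu-CTC site at 41 did not pass, at 1.63 to 4.204 over the fits without 1 library.

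**Figure D3:**
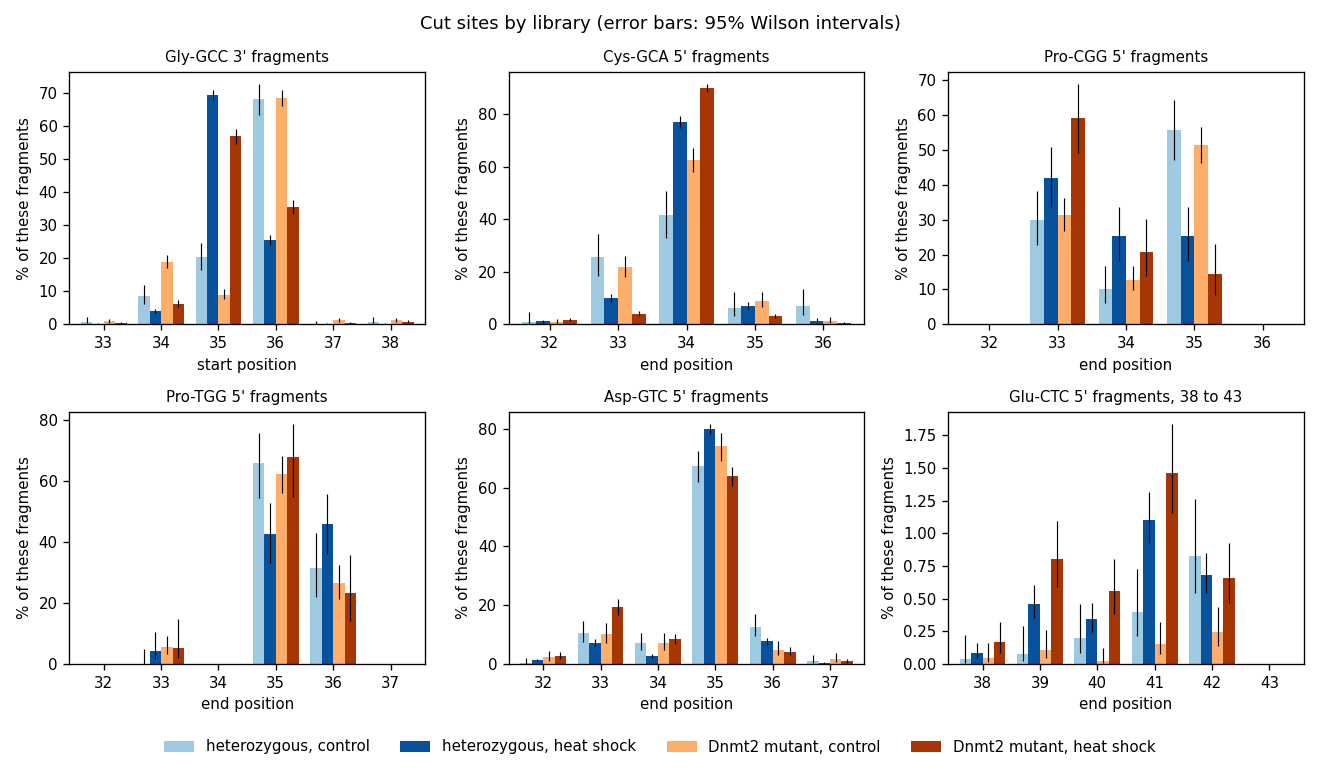
Share of fragments by cut position in 6 panels, 1 per isoacceptor, for heterozygous control and heat shock (light and dark blue) and mutant control and heat shock (orange and brown). Bars are the share of all 3′ or 5′ fragments of that tRNA in the library, with 95% Wilson intervals. Gly-GCC starts at 35 and Cys-GCA ends at 34 stand higher in both heat shock libraries, and Pro-CGG ends at 35 stand lower.

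Within Asp-GTC, 5′ fragments took a larger share of reads after heat shock. Its 5′ fragments made up 58.2% and 78.5% of its reads in heterozygous control and heat shock, while mutants had 50.2% and 77.2%. Its 3′ fragments went from 28.6% to 13.6% and from 21.0% to 13.99%. The end at 35 had 191, 1638, 236 and 554 reads and stood at 1.51 (edgeR adjusted p = 0.0601), and the end at 33 had 30, 146, 32 and 167 and stood at 1.55 (edgeR adjusted p = 0.0521). Among 3′ fragments the 37-nt one from 36 had 14, 70, 28 and 42 reads and the 34-nt one from 39 had 35, 58, 23 and 29. Neither 5′ end passed, and their shares went opposite ways in the genotypes, a difference that was not tested. The share at 35 went from 67.5% to 80.1% for heterozygotes, with mutants going from 74.2% to 64.0%. The end at 36 had 36, 156, 15 and 36 reads.

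In Glu-TTC, too, the share of 5′ fragments was higher after heat shock in both genotypes. Its 5′ fragments were 81.5% and 87.7% of reads in heterozygotes, against 69.6% and 91.0% in mutants, and its 3′ fragments 9.42% and 2.56%, then 21.9% and 5.62%. Its 3′ fragments starting at 39 had 13, 10, 113 and 24 reads and did not pass. Gly-GCC went the opposite way, with 3′ fragments at 4.62% and 14.4%, and 3.55% and 9.20%. His-GTG 5′ fragments ending at 35 numbered 0 of 43 in heterozygous control, which allows a share of up to 6.98%, and 36 of 164 in heat shock. In mutants they were 5.96% and 20.7%. That site did not pass (edgeR adjusted p = 0.289).

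Of the 10 most abundant fragments, 1 passed, the 38-nt Gly-GCC fragment described above, and the 35-nt Asp-GTC fragment did not. Over all tested fragments 5 of 81 (6.17%) passed, and 10 fragments are too few to be read against this share. The 32-nt Gly-GCC fragment had 4083 and 9485 reads in heterozygotes, against 22250 and 10947 in mutants, and the 33-nt one 2284, 5181, 7507 and 4374. Both pair ratios were below 0 with TMM scaling, at -0.36 and -0.70 and at -0.39 and -0.45. The 31-nt and 34-nt Gly-GCC fragments, with 386, 1032, 2144 and 1602 and with 386, 984, 3223 and 1111 reads, did not pass either. The 35-nt Lys-CTT fragment had 1080, 3359, 11592 and 2909 reads, with pair ratios of 0.07 and -1.67. The 35-nt Glu-CTC fragment had 1076, 5715, 3131 and 2837, the 33-nt one 775, 2304, 593 and 795, and the 33-nt Lys-TTT fragment 514, 1104, 1657 and 1146. None of these passed. Among the most used ends, Lys-CTT ending at 33 had 250, 574, 1142 and 415 reads and at 41 it had 84, 245, 542 and 83. Lys-TTT ending at 34 had 131, 345, 340 and 224. Glu-CTC ending at 51 had 365, 1310, 523 and 542.

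As shares within the fragments of a tRNA, 128 cut sites could be compared. Both intervals of the difference lay above 0 at 9 (7.03%), below 0 at 10 (7.81%) and on opposite sides at 8 (6.25%). Shares within a tRNA sum to a whole, so a rise at 1 end lowers the others.

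Read lengths were compared over all listed reads. Of 22 lengths, 2 took a larger share after heat shock in both genotypes (9.09%), 3 a smaller one (13.6%) and 4 moved in opposite directions (18.2%), by intervals that left out 0. Reads of 38 nt went from 1.00% (0.858 to 1.17) to 4.93% (4.73 to 5.13) for heterozygotes, with mutants going from 0.539% to 3.24%. Gly-GCC fragments from 35 were 50.0% and 92.1% of these reads in heterozygotes, against 34.3% and 90.9% in mutants. Reads of 32 nt went from 27.99% to 21.8% and from 34.1% to 30.3%, and reads of 34 nt from 5.94% to 4.83% and from 7.01% to 5.36%. Reads of 43 nt went from 0.502% to 0.358% and from 0.227% to 0.101%. Reads of 51 nt, which may come from longer RNAs since no longer read is listed, went from 3.49% to 3.96% and from 3.16% to 3.76%.

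**Figure D4:**
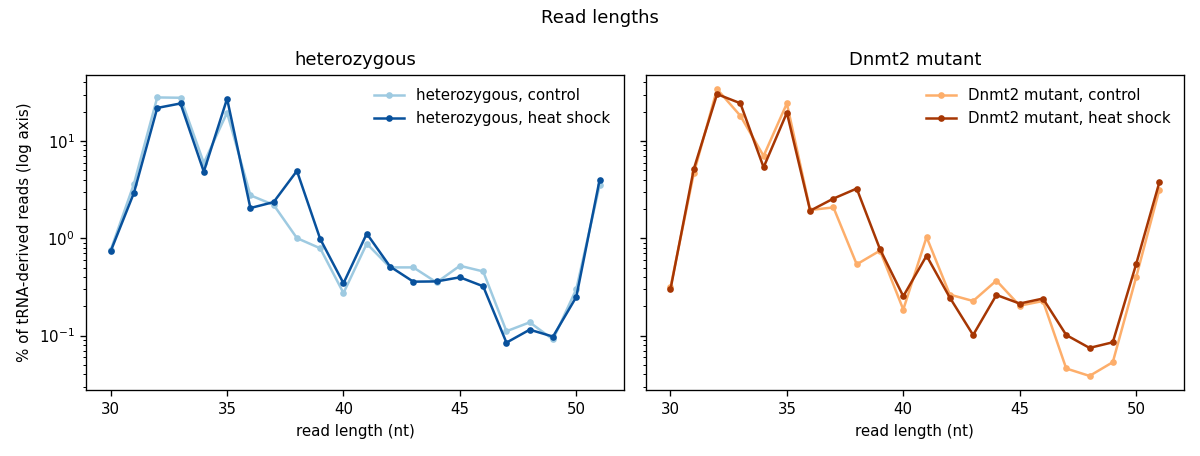
Share of tRNA-derived reads by length, on a log axis, in heterozygotes on the left and mutants on the right, with control light and heat shock dark. The point at 38 nt rises from 1.00% to 4.93% and from 0.539% to 3.24%, the largest relative gap between control and heat shock in each panel.

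The balance of 5′ and 3′ fragments moved with that length. 3′ fragments were 5.26% and 8.85% of reads in heterozygotes, against 3.56% and 6.58% in mutants, and 5′ fragments 90.3% and 87.1%, then 92.8% and 90.5%. With Gly-GCC 3′ fragments set aside, 3′ fragments of all other tRNAs were 2.84% (2.59 to 3.12) and 2.47% (2.32 to 2.62) of the remaining reads in heterozygotes. In mutants they were 1.52% (1.43 to 1.62) and 1.46% (1.34 to 1.59). The share was lower after heat shock in both genotypes. The control and heat shock intervals overlapped in both, narrowly in heterozygotes, but the interval of the difference, used for other shares, was not taken here. Such overlap does not show equal shares, and the difference was not tested.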

How the data were processed

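The deposited files list, per the file headers, a read count, a tRNA gene and a sequence per line, as raw counts. The submitters' processing notes name Bowtie and dm3. For aligner settings and trimming: not given in the sources used here. A sequence is listed at every gene it matches, shortened where a gene differs, so longer reads' counts were taken off shortened forms. This lowered the total by 2.70% to 3.43% in the 4 libraries, against each distinct sequence once. The latter was an alternative, as were DESeq2 1.42.0, other scalings, minimums and left-out libraries. Reads were placed with at most 2 mismatches on genes joined from overlapping reads. RefSeq names matched 288 of 297 genes, and the table's build differs from dm3, so no coordinates are given.

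edgeR 4.0.16 (R 4.3.3) tested features with 10 counts, scaled to the smallest library, in 2 of 4 libraries (TMM, genotype and condition, 6 libraries, 2 residual degrees of freedom, Benjamini-Hochberg). The weight of the spread pooled over features, as prior degrees of freedom, was infinite for isoacceptors and cut sites and 6.52 for single fragments. At infinite weight a feature's own spread is not used, so the smallest p-values rest on the pooled estimate. With total counts the weight for isoacceptors was 2.64. On simulated counts, 77.0% of 4-fold changes were recovered among 29 isoacceptors, 29.1% among 71 cut sites and 32.5% among 81 fragments. Pair ratios used a prior count of 2 and exact binomial intervals, and shares used Wilson intervals, for counting error only, since reads carry no molecular identifiers. Named features were those that passed, isoacceptors with 300 reads, the 10 most abundant fragments and the 3 most used ends of the 6 most abundant isoacceptors. Members and lists were chosen with earlier results of these data known.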

Additional observations from a re-analysis of the deposited data

Results flagged for a closer look

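Some values moved in opposite directions in the genotypes, each by an interval that left out 0, with TMM scaling for the log2 ratios. With 1 library per group the difference between the genotypes was not tested. The log2 ratio of heat shock to control was 0.46 in heterozygotes and -0.93 in mutants for Lys-CTT, 0.64 and -1.51 for SeC-TCA, and -0.40 and 0.41 for Gln-CTG. Lys-CTT held 9.53% of reads in heterozygous control and 9.43% in heterozygous heat shock, so as a share it did not rise there. It held 20.2% in mutant control and 9.40% in mutant heat shock, so the mutant control library stands apart from the other 3. The opposite directions of Lys-CTT therefore depend on the scaling. SeC-TCA shares were 0.313%, 0.352%, 0.273% and 0.0827%, a small heterozygous rise. Whether that rise exceeds counting error without TMM scaling is not given here.

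The use of ends 33 and 35 also went opposite ways, given here as heat shock minus control in percentage points of the 5′ fragments. At 35 the differences in heterozygotes and mutants were 12.6 and -10.2 for Asp-GTC, 11.3 and -8.53 for Glu-CTC, 3.99 and -2.40 for Lys-CTT, and -10.3 and 14.9 for Glu-TTC. At 33 they were -3.46 and 9.22 for Asp-GTC, -9.85 and 4.2 for Glu-CTC, and -3.87 and 3.47 for Lys-CTT. Glu-CTC ends at 46 differed by -0.21 and 0.464 points. The share of Gln-CTG reads that were 5′ fragments differed by -17.4 and 13.3 points.

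Among lengths, as points of all reads, 35 nt differed by 7.64 and -4.79, 33 nt by -3.51 and 6.24, 31 nt by -0.694 and 0.496, and 41 nt by 0.236 and -0.367.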

How the results depend on the processing

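The count of isoacceptors that passed was 7, and 0 with total counts (9 had an unadjusted edgeR p under 0.05, and DESeq2 called 4), 4 with DESeq2, all higher, and 4 with each distinct sequence counted once. RLE size factors gave 3 higher and 2 lower, the minimum in 3 of 6 libraries 2 and 5, reads without 51 nt 2 and 6, and library totals without Gly-GCC 1 and 6. Without 1 library the count ranged from 0 to 3. Single fragments passed in 2 cases with no count minimum, 8 without reads of 51 nt and 0 with library totals without Gly-GCC (13 at an unadjusted p under 0.05). Without 1 library they ranged from 0 to 13, with the highest count without the heterozygous control. Cut sites passed in 3 cases with no count minimum, 2 with the 4 control and heat shock libraries only and 1 with library totals without Gly-GCC, and in 0 to 3 without 1 library. The cause of these shifts was not tested.

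Gly-GCC as a sum changed sign, at -0.15 with total counts, -0.12 with no count minimum, -0.10 with the minimum in 3 of 6 libraries, -0.14 with 4 libraries only, -0.094 without reads of 51 nt and -0.31 with library totals without Gly-GCC. Without 1 library it ranged from -0.53, without the mutant control, to 0.22, and stood at -0.35 without the heterozygous heat shock library. Its pair ratios were -0.24 and -0.045 with total counts and -0.11 and -0.073 without reads of 51 nt, and that of Lys-CTT in heterozygotes was -0.016 with total counts. The isoacceptors with both intervals above 0 numbered 4 with total counts and 5 without reads of 51 nt, and those below 0 numbered 9 and 7. The mutant difference in 3′ fragments was 2.74 points with distinct sequences and 2.46 with looser fragment ends. Of 48 such share differences 46 stayed within their main interval.

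Of 9 other settings with all libraries, Cys-GCA ending at 34 and Gly-GCC starting at 35 passed in 8, with adjusted p up to 0.0997 and 0.124. Pro-CGG ending at 35 passed in 7, with adjusted p up to 0.125, but met the count minimum only in the control libraries. It had to differ to be tested, so these passes are no support by themselves, and with no minimum it did not pass. Control and heat shock were paired by genotype, as a term of each fit and in the pair ratios. The labels carry no replicate numbers, so no other block could be fitted. The mutant recovery library, with 5113 reads, set the least depth. A change of 2-fold at a cut site was recovered in 3.45% of simulated cases, so smaller changes were mostly not detectable.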
